A study of Mus musculus with 7 samples.

Results

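The clustered protocadherins are the alpha, beta and gamma genes that lie side by side on mouse chromosome 18. They were taken by symbol (Pcdha, Pcdhac, Pcdhb, Pcdhga, Pcdhgb and Pcdhgc) after the Ensembl identifiers of the count table were matched to the GENCODE M21 annotation of GRCm38. The annotation lists 58 such genes, 14 alpha, 22 beta and 22 gamma, and 57 of them were among the 25467 genes analysed here. Pcdhga10 was not analysed here. After the filter on low counts, 54 of the 57 were tested among 17211 genes. Pcdha4, Pcdha11 and Pcdhb1 did not pass it. The 54 are not all members, and 53 of them had at least 10 counts in every library.

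RNA was sequenced from the medial prefrontal cortex of 7 mice, 4 given rhTSP1 (called TSP1) and 3 given PBS. TSP1 is the usual short name of thrombospondin 1, a secreted matrix protein encoded in the mouse by Thbs1. The sources used here do not give the dose, route, time after treatment, strain, sex or age. The libraries held 15090336 to 18726612 gene counts in TSP1 mice and 16748882 to 20755167 in PBS mice.

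Clustered protocadherins are cadherin-family adhesion proteins of the neuronal surface. Neurons switch on a few of the alternate isoforms by stochastic promoter choice, with the insulator protein CTCF and cohesin bringing a distant enhancer to a promoter, so that neighbouring neurons carry different combinations. The proteins bind only matching isoforms on another membrane, which lets a neuron recognise its own branches. The C-type genes at the ends of the alpha and gamma clusters are used more regularly across neurons, and the gamma cluster is known for roles in neuronal survival and dendrite arborization.

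In these cortices the C-type genes Pcdhgc5, Pcdhgc3 and Pcdhac2 had the highest levels of all members. The summed level of all members was 501 ± 5.30 CPM (SD, n = 4) in TSP1 mice and 460 ± 19.4 CPM (SD, n = 3) in PBS mice, and the groups did not overlap. No single member passed the test at a false discovery rate of 0.05. The fitted values of 40 of the 54 members tested were above 0, meaning higher with TSP1, which is 74.1% of them, beside 51.1% of all genes tested.

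What a count can say about an isoform depends on the exons that tell it apart. Each alpha gene joins its own large first exon to constant exons that the whole cluster shares, and the gamma cluster is built the same way, whereas a beta gene has no constant exon. The clusters span chr18:36930184-37187661 (alpha), chr18:37264938-37524479 (beta) and chr18:37661793-37841873 (gamma) on GRCm38. Exon not shared with any other annotated gene on either strand made up a median of 46.4% of an alpha gene's annotated exon, 54.7% of a gamma gene's and 100% of a beta gene's. Of the 22 beta genes, 19 shared no exon base at all. The sources used here do not say how reads in the shared exons were counted or whether counting used strand.

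**Figure D1:**
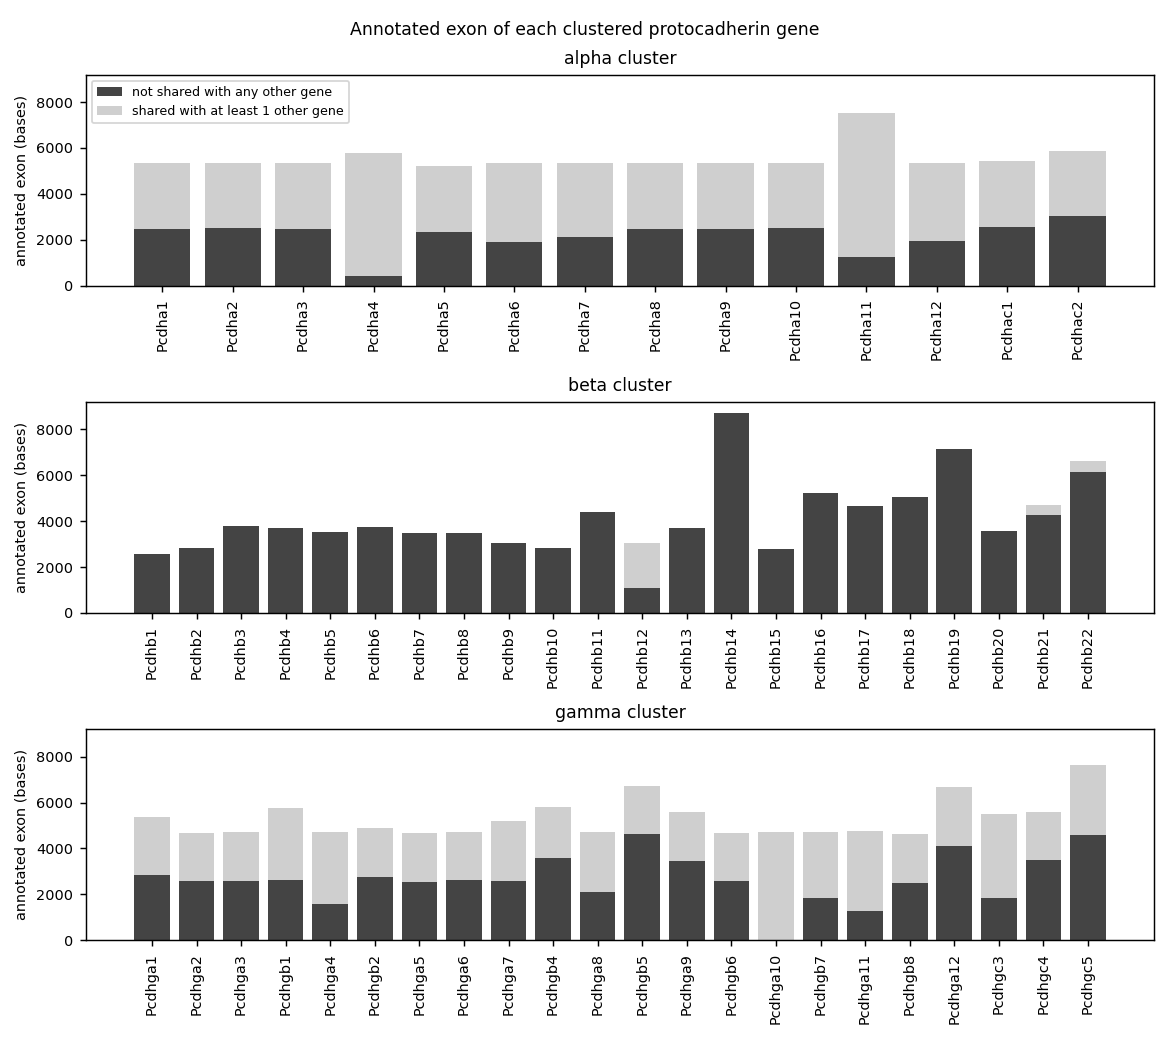
Stacked bars give the annotated exon bases of each gene, with genes in chromosomal order in 1 panel per cluster, split into bases not shared with any other annotated gene (dark) and bases shared with at least 1 (light). Alpha and gamma genes carry a light part throughout, most beta genes carry none, and Pcdhga10 has no dark part.

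Pcdhga10 has 0 exon bases of its own when both strands are considered and 2613 when only its own strand is, because the antisense gene Gm26672 covers its first exon. Among protein-coding genes with no unshared base, 14 of 184 (7.61%) were analysed here, against 5 of 26 (19.2%) of those among them that, like Pcdhga10, have 500 or more unshared on their own strand, and 16632 of 21225 (78.4%) of those with 500 or more unshared on either. These shares are a description, and why Pcdhga10 has no value was not tested. Pcdha4 keeps 404 unshared bases and Pcdha11 keeps 1268, the fewest of the alpha cluster. Most of the first exon of Pcdha4 is also annotated to Gm42416, a read-through gene on the same strand that runs on into the gamma constant exons. Pcdha4 was counted at 0.132, 0.215, 0.274 and 0.272 CPM in TSP1 mice and at 0, 0 and 0.183 CPM in PBS mice. These values rest on a handful of reads, and the groups overlap. Near-identical stretches are a further limit. Up to 25.3% of the 50-base words of an alpha gene's unshared exon (Pcdha7) recur in another member, with medians of 10.3% for alpha, 3.33% for beta and 1.02% for gamma genes, while all 5 C-type genes share none. Counts of the alternate isoforms are the more uncertain for it, by an amount that was not measured.

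Levels of different genes are compared here as CPM per kb of unshared exon, averaged over the 7 libraries. Pcdhgc5, a gamma isoform reported to bind a GABA-A receptor subunit, had the highest level, with a mean of 25.5 ± 0.968 in TSP1 mice and 23.1 ± 1.52 in PBS mice. Pcdhgc3, which is known to promote dendrite arborization in mouse cortical neurons, had a level of 17.1 ± 1.69 in TSP1 mice and 18.9 ± 0.400 in PBS mice. Pcdhac2, the isoform that serotonergic axons of the mouse need for tiling, had a level of 10.7 ± 0.398 in TSP1 mice and 9.58 ± 1.20 in PBS mice. The order of Pcdhgc3 and Pcdhac2 depends on strand. Where only exon shared on the gene's own strand is set aside, Pcdhgc3 has a mean level of 9.62, below the 10.2 of Pcdhac2, since an antisense gene overlaps it.

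The other C-type genes had lower levels than these. Pcdhgc4, the isoform on which neuronal survival depends in the mouse, had a level of 4.01 ± 0.380 in TSP1 mice and 3.43 ± 0.205 in PBS mice and ranked 9 of 57. Pcdhac1 had a level of 1.11 ± 0.334 in TSP1 mice and 1.19 ± 0.118 in PBS mice and ranked 40 of 57, below several alternate alpha isoforms.

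Among the alternate isoforms, Pcdhga11 had the highest level, 8.15 ± 0.783 in TSP1 mice and 6.97 ± 0.751 in PBS mice. An antisense gene also overlaps its exon, and on its own strand its mean level is 3.64, below the 4.65 of Pcdhgb6. Pcdhgb6 followed at 5.08 ± 0.325 in TSP1 mice and 4.07 ± 0.240 in PBS mice. Of the alternate alpha isoforms, Pcdha12 (3.61 ± 0.381 in TSP1 mice, 3.62 ± 0.844 in PBS mice) and Pcdha5 (2.28 ± 0.127 in TSP1 mice, 1.74 ± 0.220 in PBS mice) led. The 3 leading beta isoforms lay close together. Pcdhb17 had a mean level of 3.12 over the 7 libraries, Pcdhb9 of 2.90 and Pcdhb20 of 2.83, and the values of the 3 genes overlapped across mice. At the low end stood Pcdhb1, with a mean level of 0.018 and 0 counts in 4 of the 7 libraries.

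**Figure D2:**
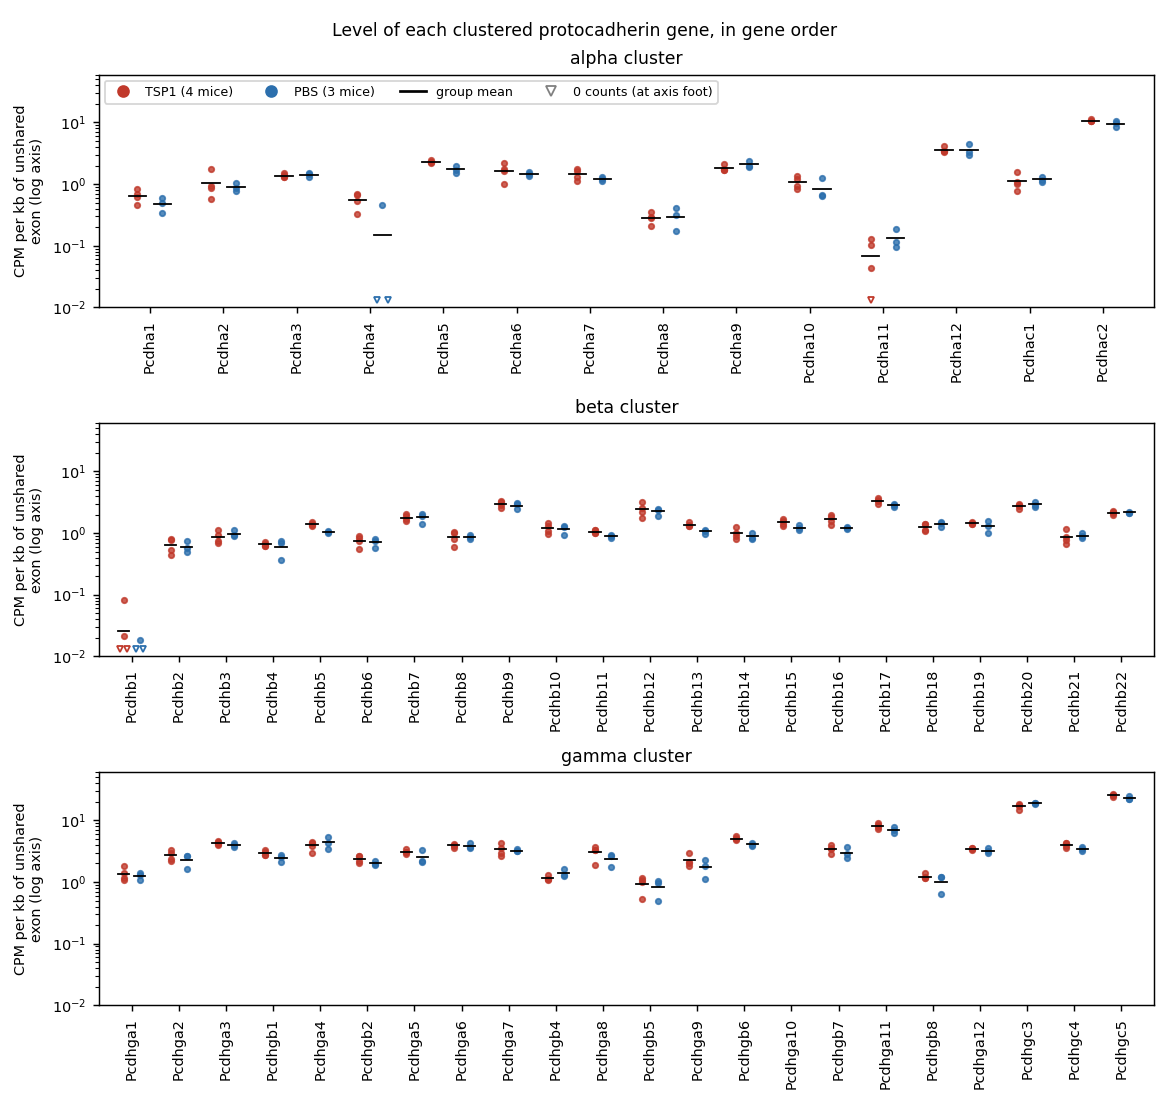
Each point is the level of a gene in a mouse, in CPM per kb of unshared exon on a log axis, with genes in chromosomal order, TSP1 mice in red to the left of PBS mice in blue, black lines at the group means and open triangles for 0 counts. Pcdhac2 stands above the rest of the alpha cluster and Pcdhgc3 and Pcdhgc5 above the rest of the gamma cluster, while the beta genes other than Pcdhb1 lie between 0.622 and 3.12 on average.

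The C-type genes made up much of their clusters. In the gamma cluster the 3 C-type genes took 43.8, 46.2, 46.4 and 44.0% of the cluster's summed level per kb in TSP1 mice, against 48.5, 46.4 and 47.1% in PBS mice. The means were 45.1 ± 1.41% and 47.3 ± 1.02%. On this length the groups were apart, TSP1 being lower, but the nearest values, in TSP1 replicate 3 and PBS replicate 2, round to the same figure. They overlapped with exon unshared on the own strand (42.5 to 44.8% in TSP1 mice, 44.6 to 46.3% in PBS mice) and with all exon. Within that share, Pcdhgc3 made up 14.4, 17.6, 17.5 and 16.5% of the cluster in TSP1 mice, against 20.5, 18.4 and 20.2% in PBS mice. The groups did not overlap, TSP1 being lower, and this held for both other lengths, which rescale the same counts. The CPM of Pcdhgc3 itself overlapped between the groups, while the summed CPM of the gamma cluster did not and was higher with TSP1. Pcdhgc5 made up 24.7 ± 0.953% in TSP1 mice and 24.1 ± 0.869% in PBS mice, with overlapping values. These shares carry no test.

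In the alpha cluster the C-type pair took 42.8 ± 0.736% in TSP1 mice and 42.8 ± 1.12% in PBS mice, nearly all of it Pcdhac2 (38.8 ± 0.663% in TSP1 mice, 38.1 ± 1.47% in PBS mice). The 3 leading beta genes together took 28.3 ± 1.60% of the beta cluster in TSP1 mice and 28.9 ± 0.337% in PBS mice. Both shares overlapped between the groups.

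Along the chromosome, level followed gene order best in the beta cluster, with a rank correlation across genes of 0.59 (n = 22 genes, range 0.45 to 0.66 over the 7 libraries). Genes within a cluster are not independent replicates, so this is a description. Pcdhb1 to Pcdhb11 had a median level of 0.918 and Pcdhb12 to Pcdhb22 one of 1.38. For the alpha cluster the rank correlation was 0.27 (n = 14), and 0.098 with the C-type genes left out. For the gamma cluster it was 0.35 (n = 21), and 0.082 with the C-type genes left out.

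The comparison of TSP1 with PBS asks whether the treatment was accompanied by a different level of these genes. Summed over the beta cluster, CPM was 128, 125, 135 and 133 in TSP1 mice and 120, 122 and 118 in PBS mice. The groups did not overlap, and the difference of the mean logs was 0.12 on the log2 scale. Summed over the gamma cluster, CPM was 302, 308, 295 and 302 in TSP1 mice and 265, 292 and 272 in PBS mice, again without overlap and with a log2 difference of 0.13. Summed over the alpha cluster, CPM was 69.4, 68.6, 67.0 and 73.9 in TSP1 mice and 57.1, 66.1 and 68.0 in PBS mice. PBS replicate 3 lay above TSP1 replicate 3, so the alpha groups overlapped, and the log2 difference of 0.13 became 0.06 without PBS replicate 1, the lowest library.

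**Figure D3:**
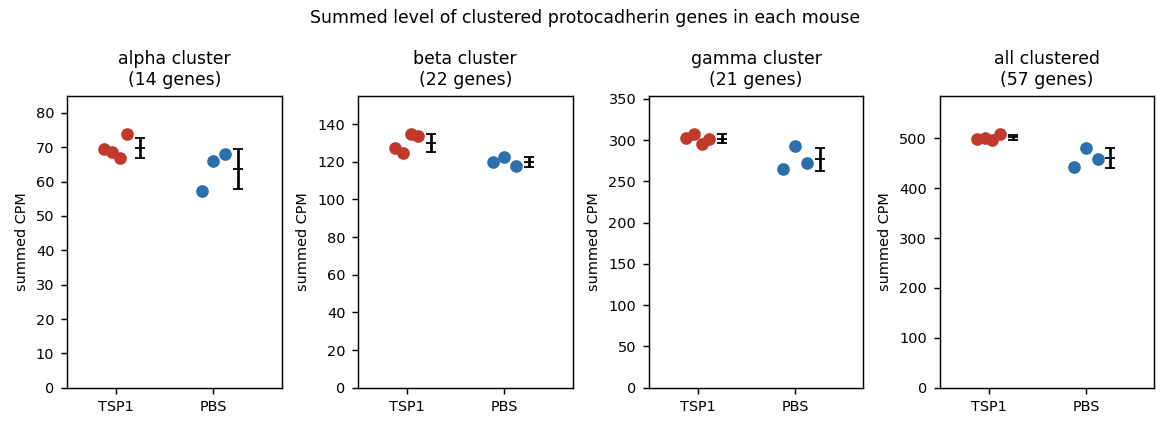
Points are the summed CPM of each mouse for the alpha, beta and gamma clusters and for all members, TSP1 left of PBS, on axes that start at 0, with the mean and SD beside them. All 4 TSP1 mice lie above all 3 PBS mice for beta (124.7 against 122.4 at the nearest), gamma and all members, and not for alpha.

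Within the gamma cluster, the 7 B-type genes summed to 45.2 ± 2.58 CPM in TSP1 mice and 39.2 ± 1.39 CPM in PBS mice, without overlap, for a log2 difference of 0.20. The 11 A-type genes summed to 93.7 ± 5.24 CPM in TSP1 mice and 84.6 ± 7.31 CPM in PBS mice, with overlap. The 3 C-type genes summed to 163 ± 5.05 CPM in TSP1 mice and 153 ± 6.19 CPM in PBS mice, and they overlapped too. In bulk tissue, fewer cells of a type and less RNA per cell cannot be told apart.

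With edgeR's quasi-likelihood test and Benjamini-Hochberg adjustment over all 17211 genes, 0 of the 54 members passed a false discovery rate of 0.05 and the smallest adjusted p was 0.327. Over all genes 0 passed as well (0% called). DESeq2 called 0 of the 52 members it gave an adjusted p (88 of 14591 genes, 0.603%, over the whole table), and limma-voom called 0 of 54 members. At an unadjusted p under 0.05, edgeR counted 7 members higher with TSP1 (12.96% of the 54, beside 4.21% of all genes) and 0 lower (beside 5.44%). In either direction the share over all genes was 9.65%. DESeq2, run without the filter on low counts, counted 4 of 57 members higher (beside 2.54% of 25445 genes). That larger set includes low-count genes, so its share is not on the same footing as the others. On the filtered genes, limma-voom counted 7 of 54 (beside 4.04%). The 7 counted by edgeR were Pcdha5, Pcdhb5, Pcdhb13, Pcdhb16, Pcdhb17, Pcdhgb6 and Pcdhgc5. The CPM of the groups did not overlap for 7 members, all higher with TSP1 (12.96%, beside 4.83% of all genes, and 0 lower beside 5.26%). These were the first 6 of that list and Pcdhb11, a gene named after its values were seen.

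The median fitted log2 fold change was 0.15 for the members, beside 0.0040 for all genes tested. By cluster it was 0.16 for 12 alpha, 0.10 for 21 beta and 0.20 for 21 gamma genes. In the alpha cluster 7 of 12 were above 0, in the beta cluster 15 of 21 and in the gamma cluster 18 of 21. The median standard error of a member was 0.17, wider than the 0.11 of all genes. Single libraries moved these medians. The alpha median was 0.092 without TSP1 replicate 4, the gamma median was 0.11 without PBS replicate 1, and the beta median ranged between 0.046 without PBS replicate 3 and 0.16 without PBS replicate 2.

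**Figure D4:**
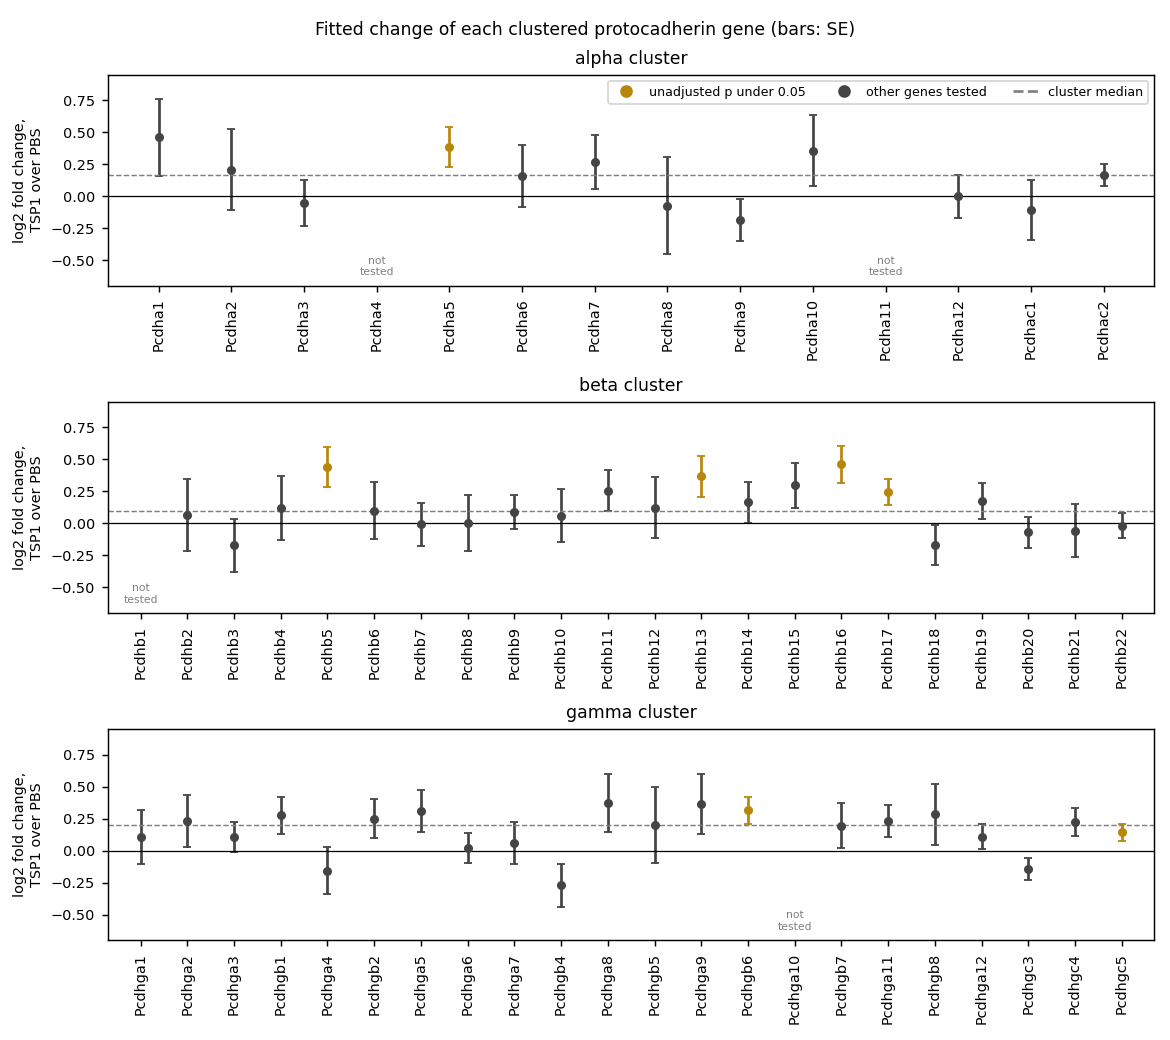
Points are the fitted log2 fold changes of TSP1 over PBS from edgeR with their standard errors as bars, genes in chromosomal order in 1 panel per cluster, with the cluster median dashed and members at an unadjusted p under 0.05 in gold. Most points lie above 0, within 0.46 of it, and every gold point does.

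Of the beta genes, Pcdhb16 (chr18:37477814-37483038, ENSMUSG00000047910) had 7.19, 8.23, 10.2 and 9.43 CPM in TSP1 mice, against 6.40, 6.56 and 6.17 CPM in PBS mice. Every TSP1 mouse was above every PBS mouse, and the TSP1 mice were the more widely spread. The log2 fold change was 0.46 with a standard error of 0.15 and an adjusted p of 0.327 by edgeR, the smallest of any member.

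Pcdhb5 (chr18:37320381-37323915, ENSMUSG00000063687) had 5.34, 5.004, 4.77 and 4.69 CPM in TSP1 mice and 3.77, 3.67 and 3.48 CPM in PBS mice. The gap between the groups was wider than the spread within either. Its log2 fold change was 0.44 (standard error 0.16, adjusted p = 0.401 by edgeR).

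Pcdhb17 (chr18:37484795-37489454, ENSMUSG00000046387), the beta gene of highest level, had 15.3, 14.0, 17.3 and 15.7 CPM in TSP1 mice and 13.5, 12.4 and 13.6 CPM in PBS mice. The lowest TSP1 mouse stood just above the highest PBS mouse. It was fitted at a log2 fold change of 0.24 (adjusted p = 0.471 by edgeR), which became 0.19 without TSP1 replicate 3 and 0.30 without TSP1 replicate 2.

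Pcdhb13 (chr18:37442500-37446209, ENSMUSG00000047307) had 4.82, 4.90, 5.71 and 4.96 CPM in TSP1 mice and 3.63, 4.08 and 4.16 CPM in PBS mice. The groups were apart, with TSP1 replicate 3 standing above the other TSP1 mice. Its log2 fold change was 0.37 (adjusted p = 0.479 by edgeR), and became 0.31 without PBS replicate 1 and 0.41 without PBS replicate 3.

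The other leading beta genes showed no such separation. Pcdhb9 had 8.58, 7.91, 9.88 and 9.97 CPM in TSP1 mice and 9.22, 8.99 and 7.40 CPM in PBS mice. Pcdhb20 had 8.91, 10.01, 10.6 and 9.81 CPM in TSP1 mice and 9.41, 11.4 and 10.3 CPM in PBS mice. In both genes the groups overlapped over most of their range, and the sign of the fitted value turned when single PBS libraries were left out. Pcdhb18, the beta gene with the smallest p among those below 0, had 7.12, 5.43, 5.60 and 7.19 CPM in TSP1 mice and 7.31, 7.75 and 6.30 CPM in PBS mice, for a log2 fold change of -0.17 (adjusted p = 0.771 by edgeR) that became -0.10 without TSP1 replicate 2 and also without PBS replicate 2.

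Of the gamma genes, the B-type Pcdhgb6 (chr18:37742094-37841873, ENSMUSG00000103088) had 14.1, 12.2, 12.6 and 13.2 CPM in TSP1 mice and 10.3, 11.1 and 9.90 CPM in PBS mice. The groups did not overlap. The log2 fold change was 0.32 with a standard error of 0.11 (adjusted p = 0.357 by edgeR), and 11.9% of the words of its unshared exon recur in another member.

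Pcdhgc5 (chr18:37819513-37841873, ENSMUSG00000102543) took 38.8% of all gamma counts and was the best-measured member, with at least 1655 counts in every library. It had 119, 122, 118 and 112 CPM in TSP1 mice and 104, 114 and 101 CPM in PBS mice. PBS replicate 2 lay above TSP1 replicate 4, so the groups overlapped. The log2 fold change was 0.14 with a standard error of 0.065, the narrowest of any member (adjusted p = 0.501 by edgeR).

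Pcdhgc3 was fitted in the other direction. It had 26.8, 34.1, 32.2 and 31.3 CPM in TSP1 mice and 34.5, 33.6 and 35.1 CPM in PBS mice. TSP1 replicate 2 lay among the PBS mice and TSP1 replicate 1 well below all others. The fitted log2 fold change was -0.14 (adjusted p = 0.622 by edgeR), the smallest p of the gamma genes below 0, and became -0.080 without TSP1 replicate 1. The antisense gene BC037039, which overlaps Pcdhgc3, had 1 to 4 counts in TSP1 libraries and 4 to 13 in PBS libraries, few beside the 407 or more of Pcdhgc3. Of the 2205 exon bases of BC037039, 646 are unshared, and whether counting used strand is not known. These counts therefore cannot say how many antisense reads fall in the overlap.

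Pcdhgc4 had 15.0, 13.4, 12.3 and 15.09 CPM in TSP1 mice and 11.2, 11.9 and 12.7 CPM in PBS mice, overlapping by a single pair, with a log2 fold change of 0.23 (adjusted p = 0.531 by edgeR). Pcdhga11 had 9.83, 11.5, 9.16 and 10.5 CPM in TSP1 mice and 7.88, 9.76 and 8.62 CPM in PBS mice, with a log2 fold change of 0.23 (adjusted p = 0.602 by edgeR). In both genes TSP1 values were mostly the higher ones and the groups overlapped.

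Of the alpha genes, Pcdha5 (chr18:36960440-37187657, ENSMUSG00000103092) had 5.08, 5.27, 5.27 and 5.78 CPM in TSP1 mice and 4.63, 4.02 and 3.61 CPM in PBS mice. It was the only tested alpha gene whose groups did not overlap. The log2 fold change was 0.38 with a standard error of 0.16 (adjusted p = 0.471 by edgeR). It became 0.31 without PBS replicate 3 and 0.49 without PBS replicate 1. In another member, 14.7% of the words of the unshared exon of Pcdha5 recur.

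Pcdhac2 took 46.1% of all alpha counts. It had 31.7, 32.4, 31.6 and 34.2 CPM in TSP1 mice and 25.3, 29.2 and 32.5 CPM in PBS mice. The TSP1 mice were tightly grouped, and PBS replicate 3 lay among them. Its fitted log2 fold change was 0.17 (adjusted p = 0.578 by edgeR), and became 0.074 without PBS replicate 1 and 0.26 without PBS replicate 3.

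Pcdhac1 had 4.02, 1.99, 2.58 and 2.78 CPM in TSP1 mice and 2.77, 3.37 and 2.99 CPM in PBS mice, the PBS values falling inside the TSP1 range. Pcdha12 had 8.11, 6.73, 6.75 and 6.48 CPM in TSP1 mice and 5.69, 6.56 and 8.86 CPM in PBS mice, with equal means within the spread. Pcdha9, the alpha gene with the smallest p among those below 0, had 4.42, 5.22, 4.28 and 4.19 CPM in TSP1 mice and 4.87, 5.97 and 4.65 CPM in PBS mice, for a log2 fold change of -0.19 (adjusted p = 0.764 by edgeR) that became -0.066 without PBS replicate 2. The groups overlapped in all 3 genes.

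**Figure D5:**
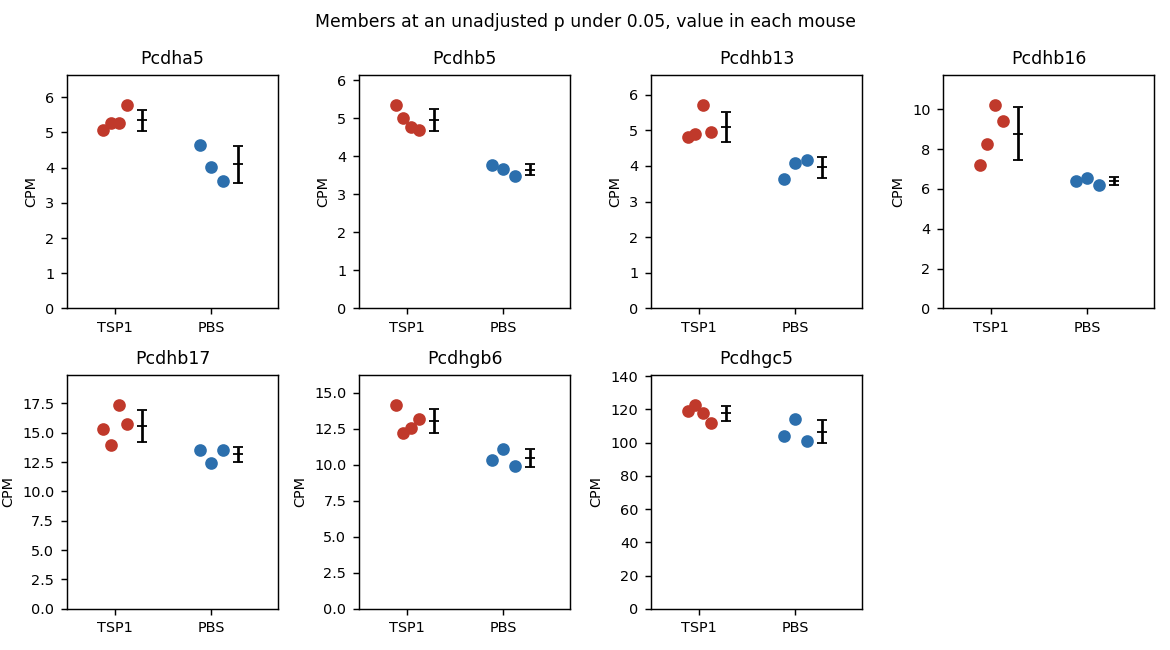
Points are the CPM of the 7 members at an unadjusted p under 0.05 in each mouse, TSP1 left of PBS, on axes that start at 0, with the mean and SD beside them. In 6 of the 7 genes the TSP1 mice lie above all PBS mice, and in Pcdhgc5 PBS replicate 2 (114 CPM) lies above TSP1 replicate 4 (112 CPM).

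The remaining members had log2 fold changes between -0.27 and 0.46 with wide errors, and none of them reached an unadjusted p of 0.05. Seen by mouse, 32, 32, 32 and 41 of the 54 members were above their own mean over the 7 libraries in TSP1 mice, against 16, 30 and 21 in PBS mice. PBS replicate 2 was close to the TSP1 mice by this count, and PBS replicate 1 was the lowest. Without TSP1 replicate 4, which stood highest, 38 of 54 members were fitted above 0 and 6 were at an unadjusted p under 0.05.

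Genes that regulate or accompany the clustered protocadherins were measured in the same fit, and 0 genes of these lists passed a false discovery rate of 0.05 by edgeR. Of 15 regulators of their promoters and chromatin, 12 were fitted above 0 (beside 51.1% of all genes). Their median log2 fold change of 0.03 became -0.011 with length and GC offsets. At an unadjusted p under 0.05 there was 1 higher and 0 lower among the 15, a share near the 4.21% and 5.44% of all genes. The regulator with the smallest p was Smc1a, a core subunit of cohesin, at 78.4 ± 4.72 CPM in TSP1 mice and 70.2 ± 1.83 CPM in PBS mice (log2 fold change 0.16, adjusted p = 0.459 by edgeR). Stag2, another cohesin subunit, had the smallest p among those below 0 (log2 fold change -0.10). Of 20 cytoplasmic partners and processing enzymes, 16 were above 0 (beside 51.1% of all genes), with a median of 0.04. At an unadjusted p under 0.05 by edgeR, 1 of the 20 was higher and 0 lower (beside 4.21% and 5.44% of all genes). The smallest p values in each direction were those of Nlgn1, a postsynaptic adhesion protein (log2 fold change 0.17, adjusted p = 0.506 by edgeR, and 0.088 without PBS replicate 1 or 0.090 with length and GC offsets), and Marcks, an actin-associated substrate of protein kinase C (log2 fold change -0.05).

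Related adhesion genes outside the clusters were measured too. Of the 12 non-clustered protocadherins listed, 11 were tested and 8 were above 0 (beside 51.1% of all genes). At an unadjusted p under 0.05 by edgeR, 1 of the 11 was higher and 0 lower (beside 4.21% and 5.44%). Their median log2 fold change was 0.13. It became 0.062 with length and GC offsets, where the members' median was 0.13, and 0.083 without TSP1 replicate 4. The smallest p was that of Pcdh19 at 51.8 ± 3.46 CPM in TSP1 mice and 45.3 ± 2.95 CPM in PBS mice (log2 fold change 0.20, adjusted p = 0.430 by edgeR). Below 0, Pcdh1 had the smallest p (log2 fold change -0.02, a sign that turned under several settings). Of the 12 other large cadherins listed, 11 were tested and all 11 were above 0 (beside 51.1% of all genes), with a median of 0.13. At an unadjusted p under 0.05 by edgeR, 3 of these 11 were higher (beside 4.21% of all genes) and 0 lower (beside 5.44%). Fat1, a giant atypical cadherin, had 91.4 ± 6.57 CPM in TSP1 mice and 76.5 ± 5.05 CPM in PBS mice (log2 fold change 0.26, adjusted p = 0.288 by edgeR). Thbs1 itself had 2.00 ± 0.605 CPM in TSP1 mice and 1.56 ± 0.505 CPM in PBS mice, which checks nothing, since the agent was given from outside.

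Markers of cell types were summed in each mouse as well, and no marker was at 0 in every library. The 5 excitatory neuron markers summed to 4755 to 6837 CPM in TSP1 mice and 6248 to 7008 CPM in PBS mice. Of the 5, 4 were fitted below 0, while 51.1% of all genes tested were above 0. Their median log2 fold change was -0.13. The 6 interneuron markers summed to 459 to 633 CPM in TSP1 mice and 518 to 587 CPM in PBS mice. Of these, 3 were fitted below 0 and 3 above 0. Those below 0 (Sst, Pvalb and Vip) were lower with TSP1 at an unadjusted p under 0.05 by edgeR, beside 5.44% of all genes. Those above 0 were Gad1, Gad2 and Slc32a1 (log2 fold changes 0.13, 0.14 and 0.04). Both neuronal sums overlapped between the groups.

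Glial and vascular markers mostly had fitted values below 0. Over all genes tested, 51.1% were above 0, and 5.44% were lower with TSP1 at an unadjusted p under 0.05 by edgeR. Values below 0 were fitted for 7 of 8 astrocyte markers (3 at that p, among them S100b at -0.42 and Aldoc at -0.31). Below 0 as well were 4 of 4 oligodendrocyte precursor markers (2 at that p) and 5 of 5 endothelial markers (2 at that p). Their sums overlapped, at 5278 to 6505 CPM in TSP1 mice and 6073 to 7093 CPM in PBS mice for astrocytes, 280 to 324 CPM in TSP1 mice and 319 to 360 CPM in PBS mice for precursors, and 161 to 195 CPM in TSP1 mice and 189 to 216 CPM in PBS mice for endothelium. The 6 microglial markers were all below 0, and 3 were at an unadjusted p under 0.05 by edgeR. They summed to 307 to 390 CPM in TSP1 mice and 391 to 452 CPM in PBS mice. The groups did not overlap, but only just (390.3 against 391.3 CPM at the nearest). All 6 oligodendrocyte markers were fitted below 0 too, although TSP1 replicate 4 summed to 8082 CPM, against 2961 to 4137 CPM in the other TSP1 mice and 4423 to 5534 CPM in PBS mice. By edgeR, 0 of these markers passed a false discovery rate of 0.05.

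Markers of the olfactory bulb, of young neurons and of the striatum had fitted values above 0. The 5 olfactory bulb and young neuron markers measured (Dcx, Doc2g, Eomes, Cdhr1 and Sp8) were all above 0 (beside 51.1% of all genes). They summed to 85.0, 128, 109 and 121 CPM in TSP1 mice and 83.2, 49.9 and 56.1 CPM in PBS mice, without overlap. Of the 5, only Dcx was itself without overlap (78.2, 70.9, 71.5 and 79.4 CPM in TSP1 mice, 58.7, 43.7 and 48.5 CPM in PBS mice). Doc2g, Eomes, Cdhr1 and Sp8 each overlapped between the groups, Cdhr1 being at 3.89 CPM in TSP1 replicate 1 and 12.3 CPM in PBS replicate 1. The 8 striatal markers, also all above 0, summed to 437 CPM in TSP1 replicate 4, against 144 to 167 CPM in the other TSP1 mice and 159 to 183 CPM in PBS mice. Choroid plexus markers summed to at most 5.01 CPM in TSP1 mice and 4.16 CPM in PBS mice, and the 3 serotonergic markers to at most 0.658 CPM in TSP1 mice and 0.856 CPM in PBS mice. The part of any of these markers in the differences of the clustered protocadherins was not tested.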

How the data were processed

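The authors deposited whole-number read counts per gene for 7 mouse libraries, as judged from the values. Per the labels' protocols, column-purified total RNA entered a SMARTer mRNA library preparation. The submitters' processing notes name GRCm38 and mm10. How reads were aligned and counted, with which annotation and with or without strand, are points not given in the sources used here. Column headings carry the number that opens a sample's description (1 to 4 for TSP1 and 8, 11 and 12 for PBS), and this links columns to mice. No batch is labelled, and an effect of that order and the treatment cannot be told apart. The series describes 7 different mice, and p-values weigh the groups against the spread between mice.

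Of 25467 identifiers, 25375 matched GENCODE M21, among them all 57 members with the same version. The annotation gives 2 genes the symbol Pcdha11. ENSMUSG00000007440 is called Pcdha10 here, after the RefSeq table for GRCm38. Exon bases are the union over transcripts, and a base is unshared when no other annotated gene has exon there on either strand.

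Counts were tested with edgeR 4.0.16 in R 4.3.3 (filterByExpr, TMM, robust quasi-likelihood fit of group alone, two-sided, Benjamini-Hochberg over 17211 genes, threshold 0.05). CPM use TMM scaling and are given per library and as mean ± SD. A standard error is the absolute log2 fold change divided by the root of its F statistic. Alternatives were RLE scaling, DESeq2 1.42.0, limma-voom 3.58.1, no filter, at least 1 CPM in 3 libraries, a replicate block, length and GC offsets, and leaving out each library. The fits were tested on simulated data. Sums, shares and lists carry no test. The members and lists were chosen with earlier results of these data known. Named are the 5 C-type genes, the 3 genes per cluster of highest level, the gene of smallest p per direction in each cluster and list, members at an unadjusted p under 0.05, and Thbs1. Pcdha4, Pcdha7, Pcdha11, Pcdhb1, Pcdhb11, Pcdhga10, the cell type markers and the genes overlapping members are named outside that rule, after their values were seen.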

Additional observations from a re-analysis of the deposited data

Results flagged for a closer look

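Of 58 groups of 4 TSP1 mice examined, 3 held a library far from the other 3. The rule flags about 1 in 20 independent groups by chance. These groups come from the same mice and are not independent, and whether chance accounts for any of the 3 was not tested. The CPM of Pcdha12 was 8.11 in TSP1 replicate 1 and 6.48 to 6.75 in the other TSP1 mice, which lies within the PBS range. The CPM of Pcdhb13 was 5.71 in TSP1 replicate 3 and 4.82 to 4.96 in the other TSP1 mice. The summed CPM of the striatal projection neuron markers was 437 in TSP1 replicate 4 and 144 to 167 in the other TSP1 mice.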

How the results depend on the processing

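No member passed the adjusted threshold under any of the 14 alternatives. The count of members at an unadjusted p under 0.05 and higher with TSP1, 7 in edgeR, was 4 in DESeq2 and 5 to 8 when single libraries were left out, and that of members lower was 0 to 1 (1 without TSP1 replicate 2). The genes higher were not always the same. Of the 7 counted by edgeR, Pcdha5, Pcdhb13 and Pcdhb17 were not counted by DESeq2 (unadjusted p = 0.057, 0.070 and 0.057 by DESeq2). Among the 7 were 4 of the 8 without PBS replicate 2, 4 of the 6 without TSP1 replicate 3 and 5 of the 7 without PBS replicate 3. With any other single library left out, all were among the 7. The medians ranged between 0.046 and 0.16 for beta and between 0.11 and 0.20 for gamma genes when single libraries were left out, and between 0.032 and 0.066 for the regulator list. With length and GC offsets the regulator list had a median of -0.011 and the non-clustered protocadherins 0.062. The sign of Pcdha12 turned with RLE scaling (0.00031), DESeq2 (0.00048) and limma-voom (0.028), and between -0.14 and 0.20 with single libraries left out. Leaving out single libraries also turned Pcdhac1 (-0.31 to 0.036), Pcdhb9 (-0.00063 to 0.15), Pcdhb20 (-0.14 to 0.0099) and Pcdh1 (-0.080 to 0.038), the last also with length and GC offsets (0.0083). The causes were not tested.

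With the replicate number as a block, 4 members were at an unadjusted p under 0.05 (all higher with TSP1), 37 of 54 were above 0 and the median was 0.14, while Pcdha12 turned to 0.048 and Pcdh1 to 0.030. The labels do not say that the numbers pair mice. Same-numbered libraries had correlations of -0.26, -0.03 and 0.01 in their deviations from group means. Not every library correlated best with its own number. Deviations within a group sum to 0 for each gene, which constrains these correlations, so they cannot settle whether mice were paired.

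Choices added after the data were seen concern length. With exon unshared on the gene's own strand, the C-type share of the gamma cluster over the 7 libraries was 44.3% in place of 46.1%, that of the alpha cluster 44.8% in place of 42.8%, the 3 leading beta genes 30.0% in place of 28.6% and the gamma rank correlation 0.25 in place of 0.35. With all exon, the alpha share was 48.2% and the beta share 30.2%. Depth limits single members: most have few counts, and a median standard error of 0.17 on the log2 scale.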
